A study of Mus musculus with 3 samples.

Results

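The MHC class II antigen presentation genes were examined in single cells of the mouse aorta. Their 7 members were taken by name from the gene list of the libraries and not by any measured value: H2-Aa, H2-Ab1, H2-Eb1, Cd74, Ciita, H2-DMa and H2-DMb1, 7 of 32285 genes counted. The 3 groups of male mice carried human APOE2, APOE3 or APOE4 where the mouse Apoe gene would be, all backcrossed to C57BL/6J and all fed a Western diet (42% fat and 0.2% cholesterol) for 16 weeks from an age of 12 weeks. Aortas were pooled by genotype and each pool gave 1 library, from 6 animals for APOE2, from 5 for APOE3 and from 7 for APOE4. With 1 library per genotype there was no replicate, no test and no p-value between genotypes, and the genotype cannot be told apart from the library or from the mice of its pool. No mouse with its own Apoe gene and no mouse on chow was part of the series, so each library was read against the other 2.

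MHC class II molecules display peptides of engulfed or membrane proteins to CD4+ T lymphocytes. They are made by the professional antigen-presenting cells, which are dendritic cells, B lymphocytes and part of the macrophages, and in other cells mostly after interferon gamma. The transactivator CIITA switches the genes on together, through factors already bound to a conserved promoter block, the X and Y boxes. In atherosclerotic arteries these genes mark the cells that can present antigen within the vessel wall.

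H2-Aa and H2-Ab1 encode the alpha and the beta chain of the mouse I-A molecule, and H2-Eb1 encodes the beta chain of I-E. Cd74 encodes the invariant chain, which holds new class II molecules together and blocks their groove. H2-DMa and H2-DMb1 encode the chains of H2-DM, which releases the last invariant chain peptide and lets antigen peptides bind. Ciita encodes the transactivator. In GRCm38 (GENCODE vM21) the chain genes lay together on chromosome 17, with H2-DMa at chr17:34119541-34139101 (+), H2-DMb1 at chr17:34153072-34160230 (+), H2-Ab1 at chr17:34257689-34269419 (+), H2-Aa at chr17:34282744-34287823 (-) and H2-Eb1 at chr17:34305867-34316674 (+). Ciita lay at chr16:10480059-10528418 (+) and Cd74 on another chromosome. H2-DMb1 has a near-identical neighbour, H2-DMb2, with which it may exchange reads, so both are given as uncertain. H2-DMa overlaps Brd2 on the other strand, Ciita overlaps Dexi, and H2-Eb1 overlaps the antisense gene Gm20513.

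The promoters are shown for the X and Y boxes described above. Of the 7 members, 4 matched a RefSeq promoter window of GRCm38.p6 (250 bases before to 50 bases after the start): H2-Aa, H2-Eb1, H2-DMb1 and H2-DMa. H2-Ab1, Cd74 and Ciita had no entry. The lines that follow give the 100 bases before the start of H2-Aa (chr17:34287824-34287923, - strand), H2-Eb1 (chr17:34305767-34305866, + strand) and H2-DMb1 (chr17:34153091-34153190, + strand), written 5′ to 3′, with capitals on the Y box letters TGATTGG and on an AAC that starts 26 to 29 bases ahead of them.
H2-Aa: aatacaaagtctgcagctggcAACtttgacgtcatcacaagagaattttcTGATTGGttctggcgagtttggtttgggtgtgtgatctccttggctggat
H2-Eb1: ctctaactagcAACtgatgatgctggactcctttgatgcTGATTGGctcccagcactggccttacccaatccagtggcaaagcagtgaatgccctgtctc
H2-DMb1: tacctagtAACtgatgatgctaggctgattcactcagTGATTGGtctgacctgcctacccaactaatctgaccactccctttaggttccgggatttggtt

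In these 3 promoters the AAC stood 29, 28 and 29 bases ahead of the Y box. Their similar spacing follows from the search and is not a result. Only an AAC 26 to 29 bases ahead was looked for, and only promoters with such a pair are shown. Searched on both strands, TGATTGG stood in 7.82% of 32851 promoter windows of the same length, and the pair of AAC and TGATTGG at this spacing in 0.46%. The related genes H2-Oa, H2-Ob, H2-DMb2 and H2-Eb2 also held the pair, and the 2 windows of H2-DMa held neither set of letters. A match describes the letters and is not a binding site shown in these cells.

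The filters (at least 200 genes, under 20% mitochondrial UMIs) kept 26757 cells, 11772 from APOE2, 6737 from APOE3 and 8248 from APOE4. A UMI (unique molecular identifier) tags 1 captured transcript, and the cells held 168310501, 125105151 and 124926887 UMIs, with medians of 12047, 17618 and 13521.5 per cell. Between 14 and 27 barcodes were shared by each pair of libraries. Cells were grouped by Seurat clusters made without the class II genes, and a cluster was named "X-like" from marker genes, so the names were rebuilt here. The class II genes were not among those markers. Macrophage-like cells (309, 83 and 93 cells in APOE2, APOE3 and APOE4) had UMIs of 10 of 10 macrophage markers, which summed to 16311 to 20093 CPM (UMIs per 1000000 UMIs of the class). B lymphocyte-like cells (25, 8 and 259 cells) had UMIs of 9 of 9 B lymphocyte markers at 4015 to 5098 CPM, with 12.9 CPM of the macrophage list over all libraries. Smooth muscle-like cells were the bulk of the tissue (7935, 4730 and 5999 cells), followed by fibroblast-like cells (1155, 634 and 911). Clusters without a clear name held 494 cells among the leukocytes and 3621 among the other cells.

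Over whole libraries, class II transcripts were higher in APOE2 and in APOE4 than in APOE3. The 7 genes together had 286 CPM in APOE2 (95% Poisson interval 284 to 289), 147 in APOE3 (145 to 149) and 311 in APOE4 (308 to 315). Here and below, intervals cover counting error only. The log2 ratio was 0.96 for APOE2 to APOE3 (0.93 to 0.98) and 1.08 for APOE4 to APOE3 (1.05 to 1.11), against medians over all genes of 0.07 and -0.05.

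The peptide-binding chains and the invariant chain carried this difference. Cd74 had 139, 70.8 and 158 CPM in APOE2, APOE3 and APOE4. H2-Aa had 39.1, 19.3 and 47.1 CPM. H2-Ab1, the partner of H2-Aa, had 40.1, 18.0 and 38.7 CPM and H2-Eb1 had 48.9, 24.3 and 51.4 CPM. The APOE3 library was the lowest for each of these genes, while the other 2 libraries were close to each other.

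Ciita was also lowest in APOE3, at a far smaller count, with 171, 65 and 197 UMIs or 1.02, 0.52 and 1.58 CPM. The chains of H2-DM differed less. H2-DMa had 9.88, 6.60 and 7.48 CPM, and H2-DMb1 had 8.40, 7.77 and 7.17 CPM, with a log2 ratio of 0.11 for APOE2 to APOE3 (-0.01 to 0.23) and -0.12 for APOE4 to APOE3 (-0.25 to 0.02). In APOE2 against APOE3, 3 of the 7 members were higher by more than 1 on the log2 scale (H2-Aa, H2-Ab1 and H2-Eb1), where 8.64% of 16836 genes were. In APOE4 against APOE3, 5 of the 7 were (all but the chains of H2-DM), where 6.28% of 16380 genes were.

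The cells that held these transcripts differed between the libraries. Macrophage-like cells held 57.7% of the class II UMIs of APOE2, 51.5% of those of APOE3 and 27.8% of those of APOE4. B lymphocyte-like cells held 4.42%, 3.87% and 52.1%. Unnamed leukocyte clusters held 24.3%, 29.7% and 11.2%, and smooth muscle-like cells, the most frequent class by far, held 4.65%, 7.31% and 4.02%. The class II transcripts of the APOE2 and APOE3 aortas were thus mostly in macrophage-like cells and those of the APOE4 aortas mostly in B lymphocyte-like cells.

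**Figure D1:**
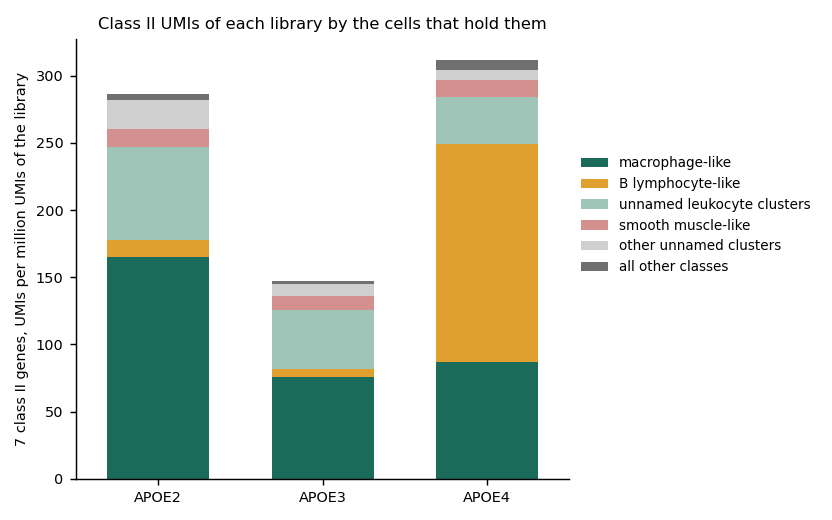
Stacked bars of the UMIs of the 7 class II genes per 1000000 UMIs of each library (y axis), split by the cells that held them, for the APOE2, APOE3 and APOE4 libraries. The bars reach 286, 147 and 311, and the B lymphocyte-like share is 52.1% in APOE4 against 4.42% and 3.87% in the other 2.

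The plot of class II UMIs by holding cells shows the macrophage-like part of APOE4 near that of APOE3. B lymphocyte-like cells made up 3.14% of the APOE4 cells (exact binomial interval 2.77 to 3.54), 0.212% of the APOE2 cells (0.137 to 0.313) and 0.119% of the APOE3 cells (0.0513 to 0.234). With these cells left out, the whole-library log2 ratio of APOE4 to APOE3 was 0.09 (0.06 to 0.12), against 1.08 with them. That of APOE2 to APOE3 was 0.95 without them, against 0.96. More B lymphocytes in the APOE4 aortas and more of them captured from 1 pool cannot be told apart.

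Within B lymphocyte-like cells, the class II level was high and similar in all 3 libraries. The 7 genes summed to 19056 CPM in APOE2 (18256 to 19883), 21411 in APOE3 (19869 to 23040) and 20019 in APOE4 (19744 to 20296). The log2 ratio of APOE4 to APOE2 was 0.07 (0.01 to 0.14), and -0.23 when centred on the median gene of the class, which stood at 0.30, so no direction was given to it. Cd74 had 10516, 11305 and 10445 CPM. H2-Ab1 had 2432, 2279 and 2255 CPM, and H2-DMa had 286, 150 and 333 CPM, the middle value from 5 UMIs. The 8 B lymphocyte-like cells of APOE3 made the precision low there.

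**Figure D2:**
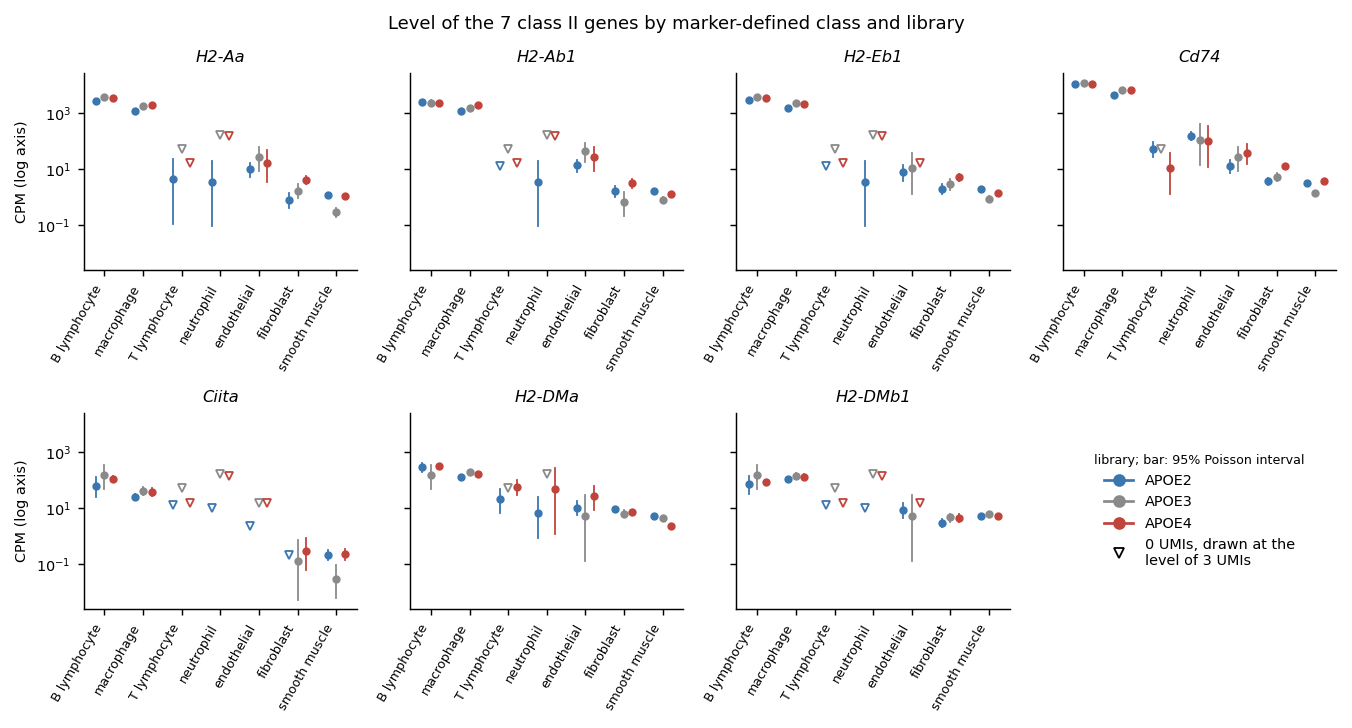
CPM (log axis) of each of the 7 class II genes in 7 marker-defined classes, with 1 point per library and bars for the 95% Poisson interval. Open triangles stand for 0 UMIs and are drawn at the level of 3 UMIs. B lymphocyte-like and macrophage-like cells lie far above the other classes for Cd74, H2-Aa, H2-Ab1 and H2-Eb1.

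In macrophage-like cells the APOE2 library was the lowest for every member. The 7 genes summed to 8628 CPM in APOE2 (8527 to 8730), 12322 in APOE3 (12075 to 12572) and 12951 in APOE4 (12708 to 13197). On the log2 scale APOE2 stood at -0.51 relative to APOE3 (-0.55 to -0.48). All 7 members were below 0, from -0.72 for Ciita to -0.36 for H2-Ab1, with a median of -0.52 against -0.03 over all genes. None was past 1 on the log2 scale, where 2.92% of 7300 genes were lower by that much.

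Cd74 had 4489 CPM in APOE2, 6398 in APOE3 and 6715 in APOE4. H2-Aa had 1212, 1739 and 1915 CPM and H2-Ab1 had 1163, 1498 and 1881 CPM. These 3 genes rank the libraries alike, with APOE2 lowest and APOE4 highest. H2-Eb1 had 1497, 2300 and 2108 CPM. H2-DMa had 133, 202 and 161 CPM and H2-DMb1 had 109, 144 and 133 CPM. For H2-Eb1 and both chains of H2-DM the APOE3 library was the highest.

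Ciita had 25.1 CPM (19.96 to 31.2), 41.5 (28.4 to 58.6) and 38.3 (26.2 to 54.0), from 81, 32 and 32 UMIs. APOE4 and APOE3 were close in this class. Their log2 ratio over the 7 genes was 0.07 (0.03 to 0.11), with 3 members above 0 and 4 below, and it turned to -0.14 when each cell was assigned from its own marker UMIs. The APOE2 macrophage-like cells therefore had the lowest class II level in CPM while the APOE2 library had the largest number of such cells.

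The macrophage-like class was made of 3 leukocyte clusters. Cluster L0 (170, 54 and 71 cells) had 9 of 10 general macrophage markers raised. Cluster L5 (75, 23 and 14 cells) had all 6 markers of resident macrophages raised, such as Lyve1, a hyaluronan receptor, and Folr2, a folate receptor. Cluster L8 (64, 6 and 8 cells) had all 6 markers of lipid-laden foam macrophages raised, such as Spp1, which encodes osteopontin, and Gpnmb, a glycoprotein of lysosomes. Summed over the list, these markers were highest in the APOE2 cells of L8, at 25052 CPM. The APOE3 cells of L8 had 7005 CPM and its APOE4 cells 2785 CPM, against 948, 610 and 542 CPM in L0. Spp1 alone had 11492 CPM in APOE2 and 112 and 87.4 CPM in the other 2, and Gpnmb had 1510 CPM in APOE2 and 0 UMIs in the others. L8 thus held cells that were unlike in Spp1 and Gpnmb between the libraries. Its summed foam markers still stood above those of L0 in all 3 libraries. The ratios of L8 set 64 APOE2 cells beside 6 APOE3 and 8 APOE4 cells that differed from them in these ways.

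In L0, which held most macrophage-like cells of every library, class II levels differed little. The sum was 12487 CPM in APOE2, 13350 in APOE3 and 13126 in APOE4. The log2 ratio was -0.10 for APOE2 to APOE3 (-0.14 to -0.06) and -0.02 for APOE4 to APOE3 (-0.07 to 0.02). Single members of L0 lay between -0.46 and 0.24 in these ratios.

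In L5, the resident-marked cells, levels were lower than in L0 in every library. The sum was 2993 CPM in APOE2 (2878 to 3112), 6654 in APOE3 (6295 to 7027) and 1743 in APOE4 (1545 to 1960). Cd74 had 1659, 3714 and 965 CPM there, and H2-Ab1 had 447, 692 and 230 CPM. The APOE3 library was the highest and APOE4, with 14 cells, the lowest. The log2 ratio of the sum was -1.15 for APOE2 to APOE3 (-1.25 to -1.05), and H2-Aa, H2-Eb1, Cd74 and H2-DMa were lower by more than 1, where 5.17% of 3305 genes were.

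In L8 the order was another one, with 8119 CPM in APOE2 (7943 to 8299), 19632 in APOE3 (18675 to 20627) and 34132 in APOE4 (32864 to 35436). Cd74 had 4609, 9760 and 17797 CPM, and Ciita had 35.3, 187 and 162 CPM from 35, 15 and 13 UMIs. The APOE2 cells of L8 were the lowest for all 7 members. In APOE2 against APOE3, 6 of 7 members were lower by more than 1 (all but H2-DMa), where 12.0% of 3090 genes were. The log2 ratio for the whole class of APOE2 to APOE3 was -0.37 without L8, -0.42 without L5 and -0.86 without L0. That of APOE4 to APOE3 was -0.10 without L8, from 0.07 with it, so the 6 APOE3 and 8 APOE4 cells of this cluster decided its sign.

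**Figure D3:**
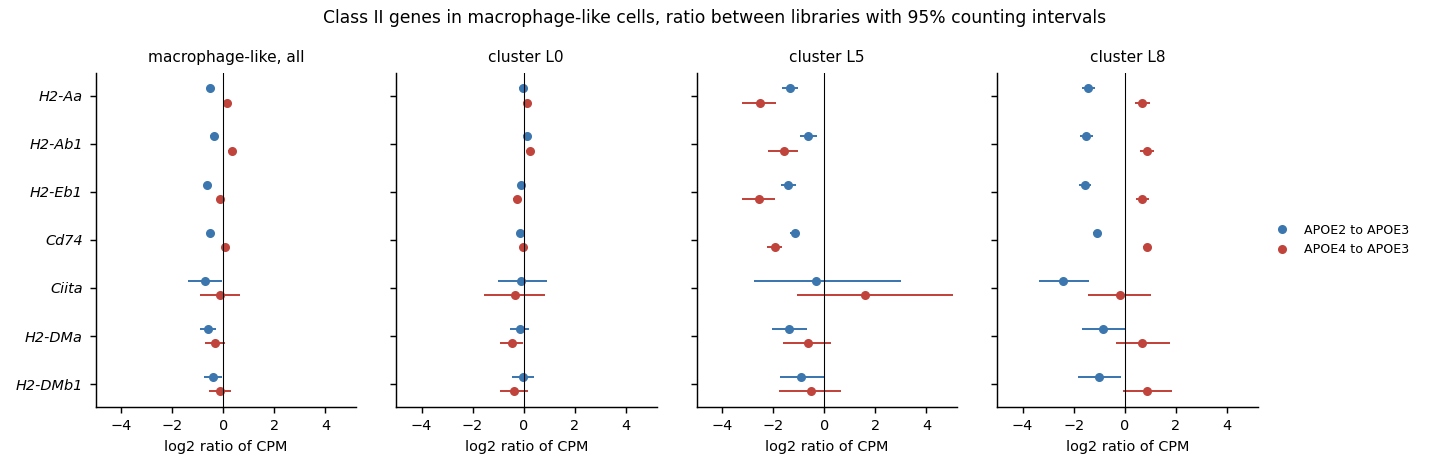
Log2 ratio of CPM (x axis) of each class II gene (y axis) for APOE2 to APOE3 and APOE4 to APOE3, in all macrophage-like cells and in clusters L0, L5 and L8, with 95% counting intervals as bars. The points of L0 lie near 0, those of L5 mostly below 0, and those of L8 on opposite sides for the 2 ratios except Ciita.

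Class II transcripts were spread unevenly over single macrophage-like cells. To compare cells of unlike depth, each cell was thinned to 1000 UMIs, which left 481 macrophage-like cells and left 4 shallower ones out. Of these cells, 36.6% (32.3 to 41.1) had no UMI of any of the 7 genes and 34.3% (30.1 to 38.7) had 10 or more. By library, the cells with 10 or more were 30.9% in APOE2, 41.5% in APOE3 and 39.1% in APOE4, and the intervals of these shares overlapped. The B lymphocyte-like cells were uniform beside them, with a median of 19 UMIs, 95.5% of cells at 10 or more and 1 cell of 291 at 0.

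T lymphocyte-like cells should lack these genes in the mouse, and 0 of 89 had a UMI of H2-Ab1 after thinning, which allows a share of cells with a UMI of up to 3.37% (3 of the 89 cells) and sets no limit on cells that express the gene. Their median depth before thinning was 5270 UMIs, against 8498 in the macrophage-like cells. H2-Ab1 was seen in 37.1% of the APOE2 macrophage-like cells (31.7 to 42.8), 51.2% of those of APOE3 (39.9 to 62.4) and 43.5% of those of APOE4 (33.2 to 54.2), and without thinning in 58.3%, 67.5% and 60.2%. Among smooth muscle-like cells, 22 of 18486 (0.119%) had one. H2-Aa, H2-Ab1 and Cd74 were all 3 seen in 33.7% of macrophage-like cells, 85.9% of B lymphocyte-like cells, 0 of 2700 fibroblast-like cells and 0 of 197 endothelial-like cells, which by the same rule of 3 cells allow up to 0.111% and 1.52% of cells with a UMI.

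Between the macrophage clusters, the share of cells with 10 or more class II UMIs was 41.1% in L0 of APOE2 (33.6 to 48.9), 46.3% in APOE3 (32.6 to 60.4) and 38.6% in APOE4 (27.2 to 51.0). In L5 it was 8%, 22.7% and 14.3%, and in L8 31.2%, 66.7% and 87.5%, the last 2 from 6 and 8 cells. Even L0 was mixed, with 30.8% of its cells at 0.

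**Figure D4:**
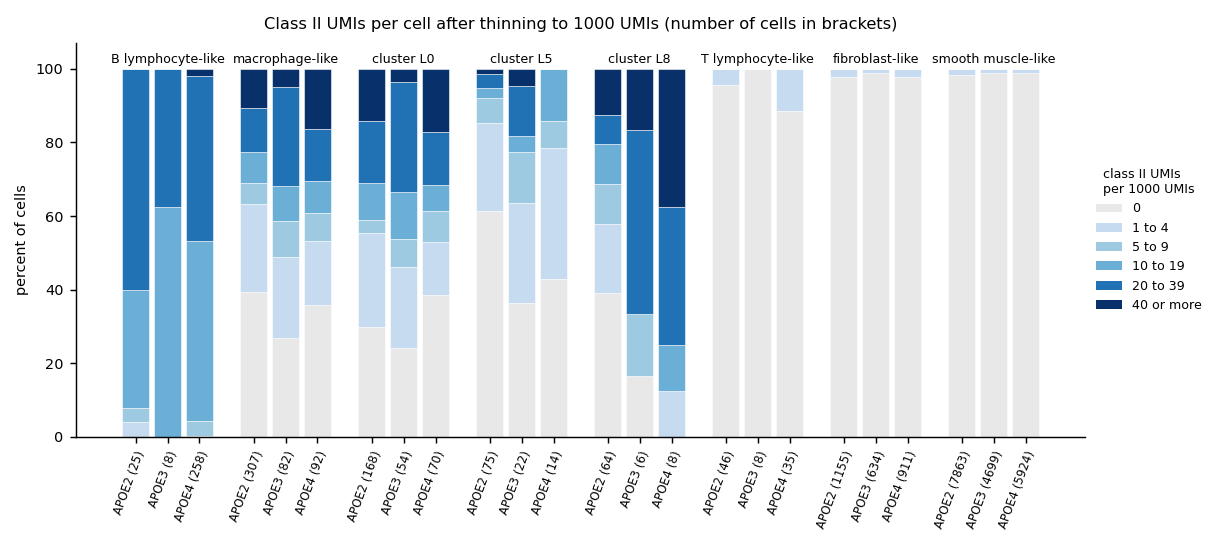
Percent of cells (y axis) in 6 bins of class II UMIs per 1000 UMIs of the cell, by class or cluster and library, with the number of cells in brackets under each bar. B lymphocyte-like bars have almost no cell at 0, macrophage-like bars are split between 0 (36.6% over all libraries) and 10 or more (34.3%), and T lymphocyte-like, fibroblast-like and smooth muscle-like bars are nearly all at 0.

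Macrophage-like cells with 10 or more class II UMIs per 1000 (class II-high, 95, 34 and 36 cells) were set beside those with 0 (class II-zero, 121, 22 and 33 cells). The cut was chosen with these values known, and the members' own difference follows from it. The other genes are described without a test. Both sets had the complement genes C1qa, C1qb and C1qc, with C1qb at 5226 CPM in class II-high and 5367 CPM in class II-zero cells over all libraries. Of the 10 general macrophage markers, however, 6 were lower in class II-high cells by interval over all libraries, 1 was higher and 3 were neither. Of 9297 genes, 15.5% were lower and 10.6% higher. Cd68, Csf1r, Mrc1 and Cd14 were lower in all 3 libraries and none was higher in all 3. The median log2 ratio of the list was -0.18. The 6 resident markers were lower in class II-high cells in all 3 libraries, with a median log2 ratio of -1.28, against -0.08 over 9297 genes. Lyve1 had 84.4 CPM in class II-high and 898 CPM in class II-zero cells of APOE2, 270 and 576 in APOE3, and 116 and 305 in APOE4. F13a1, which encodes a chain of coagulation factor XIII, had 541 and 1902 CPM in APOE2, 847 and 2129 in APOE3, and 622 and 1450 in APOE4. L5 cells were 7.88% of the class II-high and 34.1% of the class II-zero cells, so cluster and class II level went together.

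Over all libraries, 2 of the 6 foam markers were higher in class II-high cells by interval and 4 lower, where 10.6% and 15.5% of 9297 genes were. Mmp12, a macrophage elastase, was higher in class II-high cells, with 844 against 259 CPM in APOE2. It had 155 CPM against 0 UMIs in APOE3 and 416 CPM against 0 UMIs in APOE4. These last values rest on few cells. L8 gave 4 class II-high and 1 class II-zero cells in APOE3, and 7 and 0 in APOE4, where its 8 cells held 105 Mmp12 UMIs. Spp1 had 383 against 7448 CPM in APOE2, and at most 9 UMIs in either set of the other 2 libraries. In APOE4 Spp1 went the other way, with 9 against 1 UMIs. Lgals3 was lower in class II-high cells of APOE2 and APOE3 but higher in those of APOE4 (457 against 262 CPM). Gpnmb, the other foam marker higher over all libraries, had only 1 UMI outside APOE2. Of the 9 class I genes, 5 were higher in class II-high cells by interval over all libraries and 0 lower, where 10.6% and 15.5% of 9297 genes were. Their median log2 ratio was 0.20. In APOE4, however, the interval of every class I gene held 0, and H2-K1 was lower there (791 against 821 CPM). The more abundant ones differed less than the resident markers, with H2-K1 at 860 against 721 CPM, H2-D1 at 1605 against 1470 CPM and B2m, the light chain of class I, at 1626 against 1412 CPM over all libraries. Cd86, a co-stimulatory ligand of T lymphocytes, had 962 against 1004 CPM in APOE2, 1441 against 1612 in APOE3 and 1188 against 1419 in APOE4. The log2 ratio was -0.06 in APOE2 (-0.19 to 0.07), -0.16 in APOE3 (-0.36 to 0.04) and -0.26 in APOE4 (-0.46 to -0.05), so the interval left out 0 in APOE4 alone.

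The B lymphocyte marker Cd79b was low in both sets but higher in class II-high cells, with 23 against 5 UMIs or a log2 ratio of 2.76 (1.33 to 4.51), and Cd79a had 14 against 1 UMI. All 9 markers of the B lymphocyte list had more UMIs in class II-high cells, and the part of this in the other differences was not tested. Median depth was 7434 UMIs in class II-high and 9809.5 in class II-zero cells, and its part in these differences was not tested. Adgrl3, an adhesion receptor in none of the lists, had 226 against 1.48 CPM, and Cadm1, a cell adhesion gene among the dendritic markers, had 197 against 22.1 CPM. Both were picked after their values were seen. Of 4 type 1 dendritic markers with at least 20 UMIs, 3 were higher by interval over all libraries and 0 lower. Of 5 type 2 markers, 1 was higher and 1 lower, with Clec10a at 84.7 against 193 CPM. Over 9297 genes, 10.6% were higher and 15.5% lower. The type 1 markers Xcr1, Clec9a and Itgae had at most 2 UMIs in either set.

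**Figure D5:**
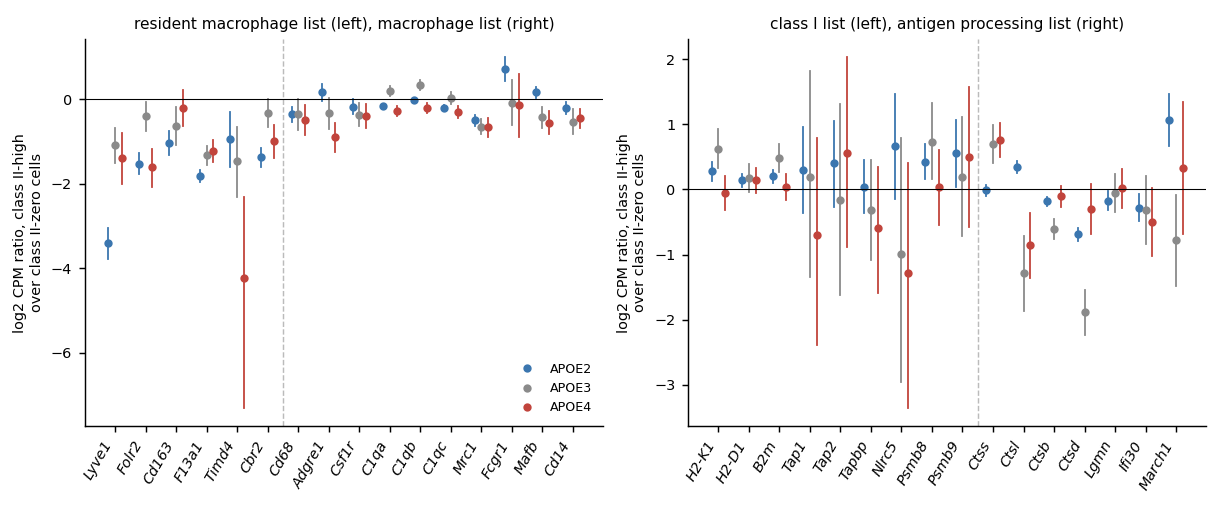
Log2 CPM ratio (y axis) of class II-high over class II-zero macrophage-like cells for single genes (x axis), by library, with 95% counting intervals. The left panel holds resident and general macrophage markers and the right panel class I and antigen processing genes, and the resident markers lie below 0 in all 3 libraries.

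The unnamed leukocyte clusters also held class II transcripts. Cluster L3 (56, 29 and 48 cells, median 958 UMIs per cell) had 43063, 30699 and 15115 CPM over the 7 genes. It was left unnamed for its low UMI count. All 10 general macrophage markers had UMIs in it, and 3 of the 10 were raised. They summed to 17911 CPM over all libraries, against 19242 CPM in macrophage-like cells. In L3 the APOE2 library had the highest class II level, whereas it had the lowest in macrophage-like cells. Cluster L7 (55, 20 and 11 cells) had 15217, 29100 and 24558 CPM and as many raised markers of type 1 conventional dendritic cells as of resident macrophages and of type 2 dendritic cells, 3 of each, so it was not named. At the finer resolution of 1.6 a cluster of 35 cells (22, 4 and 9) stood apart with all 7 markers of type 1 dendritic cells raised, beside 6 of 8 of type 2 dendritic cells and 4 of 8 of monocytes. Only 1 type 1 marker (Cadm1) was among its 10 leading genes, and it was taken as dendritic-like after the data were seen. Its 7 genes summed to 25834, 44167 and 22844 CPM, and 45.7% of its cells had 10 or more class II UMIs per 1000 while 25.7% had 0. The level of these dendritic-like cells was thus above that of macrophage-like cells in each library, with 4 cells behind the APOE3 value.

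Outside the professional antigen-presenting cells the levels were lower in the named classes. An unnamed cluster outside the leukocytes held 2348, 900 and 431 class II UMIs in 206, 374 and 37 cells. Of its UMIs, 48.2% were in 32 cells, of which 24 carried at least 5 leukocyte UMIs (of Ptprc, Tyrobp, Fcer1g, Laptm5, Cd52 and Coro1a). Only 15 of its 206 APOE2 cells had no such UMI, against 277 of 374 in APOE3 and 33 of 37 in APOE4. The cluster thus held unlike cells in the 3 libraries, and most of its APOE2 cells carried leukocyte transcripts. Endothelial-like cells had 62.1 CPM over the 7 genes in APOE2 (49.6 to 76.9), 114 in APOE3 (71.7 to 173) and 105 in APOE4 (64.3 to 163). Ciita had 0 UMIs in all 217 of them. In APOE2, 1 of these cells held 38.1% of 84 class II UMIs, and in APOE3, 1 cell held 54.5% of 22. Fibroblast-like cells had 19.9, 21.2 and 36.7 CPM, and 49.9% of the APOE4 UMIs came from 2 cells that also carried at least 5 leukocyte UMIs. Without every cell that carried any leukocyte UMI, which left 1111, 619 and 885 cells, the values were 18.95, 13.5 and 16.99 CPM. T lymphocyte-like cells had 18, 0 and 13 class II UMIs, all but 1 of them of Cd74 and H2-DMa. Of the 54 class II UMIs in neutrophil-like cells, 48 were of Cd74. Thymocyte-like cells had 678, 1281 and 1103 CPM, with 88.3% of the UMIs in 8 of 89 cells. Their class held macrophage markers at 5560 CPM, so cells of more than 1 kind stood in it, and the part of this in its class II level was not tested.

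In smooth muscle-like cells the 7 genes summed to 18.8 CPM in APOE2 (18.1 to 19.6), 13.7 in APOE3 (12.9 to 14.4) and 15.1 in APOE4 (14.3 to 15.8). Much of each sum came from the chains of H2-DM, whose reads are uncertain. H2-DMa gave 5.44, 4.46 and 2.22 CPM of it and H2-DMb1 5.24, 5.95 and 5.40 CPM. Cells with at least 20 class II UMIs (9, 1 and 6 cells) held 13.3%, 3.93% and 22.6% of these UMIs. Without every cell that carried any leukocyte UMI, which left 7668, 4661 and 5879 cells, the sums were 16.5, 13.5 and 11.5 CPM, with APOE4 the lowest. These sums include the chains of H2-DM too. Over all smooth muscle-like cells, Cd74 had 3.22, 1.32 and 3.53 CPM, which was 2.32%, 1.86% and 2.24% of its whole-library level. H2-Ab1 had 1.67, 0.78 and 1.21 CPM, or 4.17%, 4.34% and 3.14%. H2-Aa and H2-Eb1 also stood at a low share of the library level, between 1.47% and 3.79%. In APOE2 against APOE3, 4 of the 6 members with at least 50 UMIs were higher by more than 1 (H2-Aa, H2-Ab1, H2-Eb1 and Cd74), where 3.0% of 15044 genes were. The macrophage markers summed to 19.8, 15.7 and 35.8 CPM in the same cells, and the part of RNA from other cells in these values was not tested.

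Ciita stood higher, at 21.5%, 5.85% and 14.05% of its whole-library level, from 26, 3 and 23 UMIs. The chains of H2-DM stood highest. H2-DMb1 had 5.24 CPM in APOE2 (4.84 to 5.67), 5.95 in APOE3 (5.48 to 6.45) and 5.40 in APOE4 (4.96 to 5.87), which was 62.4%, 76.6% and 75.3% of its whole-library level, and smooth muscle-like cells held 44.1%, 60.4% and 62.6% of all its UMIs. H2-DMa had 5.44 (5.03 to 5.88), 4.46 (4.05 to 4.90) and 2.22 CPM (1.94 to 2.52), from 647, 440 and 230 UMIs. The APOE4 library was the lowest, with a log2 ratio to APOE3 of -1.01 (-1.25 to -0.78), where 0.792% of 14890 genes were lower by more than 1 and the median gene stood at -0.08. As H2-DMa overlaps genes on both strands, its reads in these cells are uncertain.

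B lymphocyte-like and macrophage-like cells used different sets of the accessory genes. H2-Oa and H2-Ob encode the chains of H2-DO, an inhibitor of H2-DM. H2-Oa had 179, 240 and 253 CPM in B lymphocyte-like cells and 1.55 and 1.30 CPM and 0 UMIs in macrophage-like cells. H2-Ob had 250, 270 and 421 CPM against 4.66, 5.19 and 4.78 CPM. H2-DMb2, the neighbour of H2-DMb1, had 295, 570 and 274 CPM against 0.621, 2.60 and 3.59 CPM, and H2-Eb2, another beta chain gene of the E locus, had 44.7, 150 and 103 CPM against 0.31, 1.30 and 2.39 CPM.

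Over all libraries, the log2 ratio of B lymphocyte-like to macrophage-like cells was 7.62 for H2-Oa and 7.62 for H2-DMb2, but -0.47 for H2-DMb1 (-0.80 to -0.16). H2-DMb1 was the only member on the macrophage side of 0 over all libraries. By library its ratio was -0.61 (APOE2), 0.06 (APOE3) and -0.64 (APOE4), and reads shared with H2-DMb2 could shift it. Most B lymphocyte-like cells came from APOE4 and most macrophage-like cells from APOE2, so the other members are given by library. In APOE2, APOE3 and APOE4 the ratio of Cd74 was 1.23, 0.82 and 0.64. For H2-Aa it was 1.17, 1.08 and 0.80, for H2-Eb1 0.98, 0.68 and 0.71, and for H2-Ab1 1.06, 0.61 and 0.26. These 4 genes were above 0 in all 3 libraries, as was Ciita at 1.32 (-0.04 to 2.42), 1.85 (0.14 to 3.22) and 1.56 (0.98 to 2.17). H2-DMa had 1.11, -0.43 and 1.04, the APOE3 value from 5 UMIs in B lymphocyte-like cells.

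The list of antigen processing genes had 7 members in the libraries. In macrophage-like cells 3 of the 7 were higher by more than 1 in APOE2 than in APOE3, where 4.48% of 7300 genes were, and their median was 0.67. Ctss, the cathepsin S that trims the invariant chain, had 1915, 884 and 756 CPM. Ctsl (cathepsin L) had 1423, 215 and 280 CPM and Ctsd (cathepsin D) had 1931, 711 and 487 CPM. Lgmn, an asparagine endopeptidase, had 762, 766 and 599 CPM, while March1, a ubiquitin ligase that removes class II molecules from the surface, had 92.8, 139 and 56.2 CPM. Ctss, Ctsl and Ctsd were highest in APOE2, the library with the lowest class II level in these cells. Between class II-high and class II-zero cells the pattern was mixed. In APOE2, APOE3 and APOE4 the log2 ratio was -0.01, 0.70 and 0.76 for Ctss. It was 0.35, -1.28 and -0.85 for Ctsl and -0.68, -1.89 and -0.30 for Ctsd. A link to the class II level was not tested.

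In macrophage-like cells, 4.48% of 7300 genes were higher and 2.92% lower by more than 1 in APOE2 against APOE3. None of the 4 co-stimulation genes was, and their median was -0.56, against -0.03 over all genes. For Icosl the interval of the ratio held 0 (-0.54, -1.13 to 0.09). Cd86 had 1021, 1514 and 1307 CPM, Cd40, which receives signals from CD4+ T lymphocytes, had 38.2, 55.8 and 63.4 CPM, and the less abundant Cd80 had 16.8, 29.8 and 22.7 CPM. The class I list had 0 of 9 genes past 1 in APOE2 against APOE3. At the shares over all genes, counts from such short lists say little. The class I medians were -0.04 for APOE2 to APOE3 and -0.17 for APOE4 to APOE3. B2m had 1544, 1462 and 1296 CPM.

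Rfxap and Nfyb, from the factors of the promoter block, were present in macrophage-like, B lymphocyte-like and smooth muscle-like cells. The other factors are not given here. Rfxap, a subunit of the RFX complex that binds the X box, had 25.9 CPM in macrophage-like, 29.4 in B lymphocyte-like and 22.5 in smooth muscle-like cells over all libraries. Nfyb, a subunit of the Y box factor, had 16.98, 27.6 and 29.3 CPM. Ciita had 30.03, 109 and 0.162 CPM in these classes. A link of these levels to the class II level was not tested.

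Transcripts of Ifng, which encodes interferon gamma, were rare, with 54 UMIs in 13 cells. Of these UMIs, 26 were in 3 T lymphocyte-like and 11 in 6 natural killer-like cells. The APOE2 library held 42 of them, APOE4 held 12 and APOE3 none. The natural killer-like class also had UMIs of 10 of 10 T lymphocyte markers, at 4857 CPM against 5898 CPM in T lymphocyte-like cells, so its name is uncertain. In macrophage-like cells none of the 6 genes of the interferon gamma route with at least 50 UMIs was past 1 in APOE2 against APOE3. Of 7300 genes, 4.48% were higher and 2.92% lower by that much, so this count says little. Irf1, a transcription factor of this route, had 95.6, 103 and 143 CPM in macrophage-like cells. In smooth muscle-like cells Irf1 had 89.3, 81.2 and 200 CPM and Socs1, an inhibitor of the route, had 8.502, 11.7 and 28.8 CPM. These 2 genes were highest in APOE4 there, and the other genes of the route are not given for this class. Among class I genes in the same cells, H2-K1, H2-D1 and B2m were lower in APOE4 than in APOE3 (log2 ratios -0.30, -0.43 and -0.39), while Nlrc5 was higher (0.52). The summed class II level of the class was highest in APOE2, but its members differed. Cd74 was highest in APOE4 (3.22, 1.32 and 3.53 CPM), and Ciita was near equal in APOE2 and APOE4 (0.219 and 0.222 CPM). H2-Aa, H2-Ab1, H2-Eb1 and H2-DMa were highest in APOE2 and H2-DMb1 in APOE3. A link of these levels to the route was not tested.

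Across 17 points (a class in a library with at least 30 cells), the mean of the 7 members on the log2(CPM + 1) scale went most closely with Blnk (Pearson r = 0.97), Fgd2 (0.97), Bank1 (0.96), Gm20513 (0.95), Cd83 (0.95), Ly86 (0.94), Bmp2k (0.93), Rasgef1b (0.93), Irf8 (0.92) and Cd86 (0.92), out of 4539 genes. Blnk and Bank1 encode adaptors of B lymphocyte signalling, Irf8 a transcription factor of myeloid and B lineage cells, and Gm20513 lies antisense to H2-Eb1. The single members correlated with that mean at 0.87 (H2-DMa) to 0.99 (H2-Aa), and pairs of members at 0.63 to 0.98. The points of 1 library share its depth, and the correlations describe differences between cell classes more than between genotypes.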

How the data were processed

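Single-cell RNA-seq (10x Chromium) was made by the authors from 3 pools of mouse aortas, 1 library per genotype. The deposited matrices held raw UMI counts per gene and cell barcode, which per the file headers came from Cell Ranger 7.0.1, with mm10 as the build; whether introns were counted is not given in the sources used here. Genes were matched to GENCODE vM21 by identifier (32158 of 32285). No mouse was labelled within a pool, so n = 1 per genotype and no test was run.

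Cells with at least 200 genes and under 20% mitochondrial UMIs were kept. Scrublet (scanpy 1.11.5) called 1, 0 and 2 cells as doublets, too few to have worked, so the cells with the top 5% of scores were left out only as an alternative. Cells were clustered in Seurat 5.3.0 (R 4.3.3, sctransform 0.4.2, CCA integration, 3000 genes less the class II genes, 30 components, resolution 0.8), and the cells of the leukocyte clusters were clustered again (2000 genes, 20 components). A name needed 3 markers, each seen in 10% of the cells and raised 2-fold. Clusters that tied between types, or with a median under the low-UMI limit, were left unnamed.

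Per class and library, UMIs were added up and divided by the class total (CPM), with exact 95% Poisson intervals, exact conditional binomial intervals for ratios and Clopper-Pearson intervals for shares (scipy 1.17.1). Shares came from cells thinned to 1000 UMIs. The share of all genes past 1 on the log2 scale was taken over genes with at least 50 UMIs in both libraries together. On counts simulated as independent Poisson draws, 96.0% of 7300 genes fell inside their interval for the macrophage-like ratio of APOE2 to APOE3. This checks the calculation only, as the intervals are made for such counts and real counts were clustered by cell. A count of 0 was given a limit of 3 UMIs, and a share of 0 a limit of 3 cells. The members and all gene lists were chosen with earlier results of these data known. Genes named were the members, the listed pathway genes and the 10 genes most like the members, besides cell type markers and Adgrl3, which was chosen after its values were seen. H2-Ea and H2-Ea-ps were absent from the gene symbols of the libraries and could not be counted. RNA of H2-Eb1 alone does not show that the I-E molecule was made. March1 was used under that symbol.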

Additional observations from a re-analysis of the deposited data

How the results depend on the processing

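The higher class II level of the whole APOE2 library than APOE3 (log2 ratio 0.96) was 0.90 without the highest Scrublet scores, 0.58 as the mean of each cell's CPM and 0.89 centred on the median gene. That of APOE4 to APOE3 (1.08) was 1.03, 1.37 and 1.13 under these settings, 0.086 without the B lymphocyte-like cells and 1.14 without cluster L3. In macrophage-like cells, the ratio of APOE2 to APOE3 (-0.51) kept its direction in every setting run, with -0.32 as the mean of each cell's CPM, -0.57 at resolution 1.6, and -0.86, -0.42 and -0.37 without clusters L0, L5 and L8. That of APOE4 to APOE3 (0.07) was 0.24 as the mean of each cell's CPM, 0.26 without L0 and 0.13 without L5, and turned to -0.14 with classes set by cell, -0.10 without L8 and -0.0095 with cluster L3. In B lymphocyte-like cells, APOE4 to APOE2 (0.07) turned to -0.14 as the mean of each cell's CPM and -0.23 centred on the median gene. The causes were not tested. The share of macrophage-like cells with a UMI of H2-Ab1 was 44.4% in APOE2 and 54.5% in APOE4 when thinned to 3000 UMIs, and 58.3%, 67.5% and 60.2% in APOE2, APOE3 and APOE4 without thinning. The settings that left out or added clusters or B lymphocyte-like cells were chosen after seeing the data. No paired analysis was possible because each genotype had 1 library. The 8 B lymphocyte-like, 6 L8 and 8 T lymphocyte-like cells of APOE3 limit every value that rests on them.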
